A study of Zea mays with 6 samples.

Results

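The first 10 Mb of maize chromosome 5 were examined in developing leaves of wild type and of the hda108 mutant. The segment runs from the start of the chromosome on B73 RefGen_v3 and holds 523 of the 39604 gene entries in the deposited table. Of these, 339 were compared between the genotypes, out of 21057 compared genes in all. A gene was compared when both genotypes had a value above 0 and the mean of the values was at least 1 FPKM (fragment counts scaled to transcript length and library size). The difference is log2(FPKM + 0.5) in hda108 minus the same in wild type, and 2-fold means a difference of at least 1 in size. Members were chosen by position and by these levels, and the segment was singled out after its differences were known, so the counts below describe it and are not a test.

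The plants were wild-type maize and plants labelled hda108/hda108 mutant, grown in a greenhouse to vegetative stage 8 and sampled at the developing 11th leaf, still wrapped in older leaves. There were 3 libraries of each genotype, made from total RNA depleted of ribosomal RNA with strand kept. The allele behind the mutant and the inbred background of either genotype are not given in the sources used here. The deposited table holds 1 value per gene for each genotype and none per library, so there is no value per plant, no spread between replicates and no p-value. The depth behind the values is also unknown. In bulk tissue, fewer cells of a type and less RNA per cell cannot be told apart.

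HDA108 encodes a histone deacetylase of the RPD3 type. Such enzymes remove acetyl groups from histone tails, and their loss is generally associated with more acetylated, more open chromatin. They act within protein complexes that are brought to particular genes. The best known genes of this segment are m31 and m15, which encode MADS-box transcription factors. In grasses, the AP1/FUL clade of this family, to which m15 belongs, takes part in the change from vegetative to floral meristems, and the SEPALLATA clade, to which m31 belongs, acts in floral organs and spikelets.

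The labels were checked first. HDA108 itself (GRMZM2G136067, chromosome 4, 65983217 to 65988818) had a wild-type value of 10.9 FPKM and an hda108 value of 3.06 FPKM, 28.1% of the wild-type value. The highest locus of each leaf photosynthesis gene looked up was abundant in both pools and lower in hda108. For pep1 it had 167 FPKM in the wild-type pool and 85.6 FPKM in the hda108 pool, and for pdk1 1111 and 455 FPKM. The gene me3 had 384 and 196 FPKM. Weaker loci of the same names did not share this. Another pep1 locus had 5.45 and 6.97 FPKM, and other pdk1 loci had 5.81 and 5.45 FPKM, and 10.1 and 8.44 FPKM. The stem and meristem genes kn1 and lg3 were below 0.05 FPKM in both pools. The seed regulator o2 and the root gene rtcs were listed at 0 in both. Of the 8 seed, anther and root markers found, rth3, a root hair gene, was not near 0, at 4.31 FPKM in wild type against 8.50 FPKM in hda108, nor was mfs2, at 1.64 and 0.933 FPKM, and zp15 had 0.154 and 0.775 FPKM. Their part in the results below was not tested.

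Most genes of the segment had nearly the same value in both genotypes, and a small group stood higher in hda108. Of the 339 members, 13 were at least 2-fold higher (3.83%) and 0 were at least 2-fold lower. Over all compared genes, 1.48% passed 2-fold upward in hda108 and 0.836% downward. The median difference of the members was 0.06, and that of all compared genes was also 0.06. The quartiles of the members were -0.09 and 0.20, against -0.12 and 0.23 over all genes. The higher genes therefore formed a tail on one side, while the centre of the distribution lay where it did for the whole table.

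**Figure D1:**
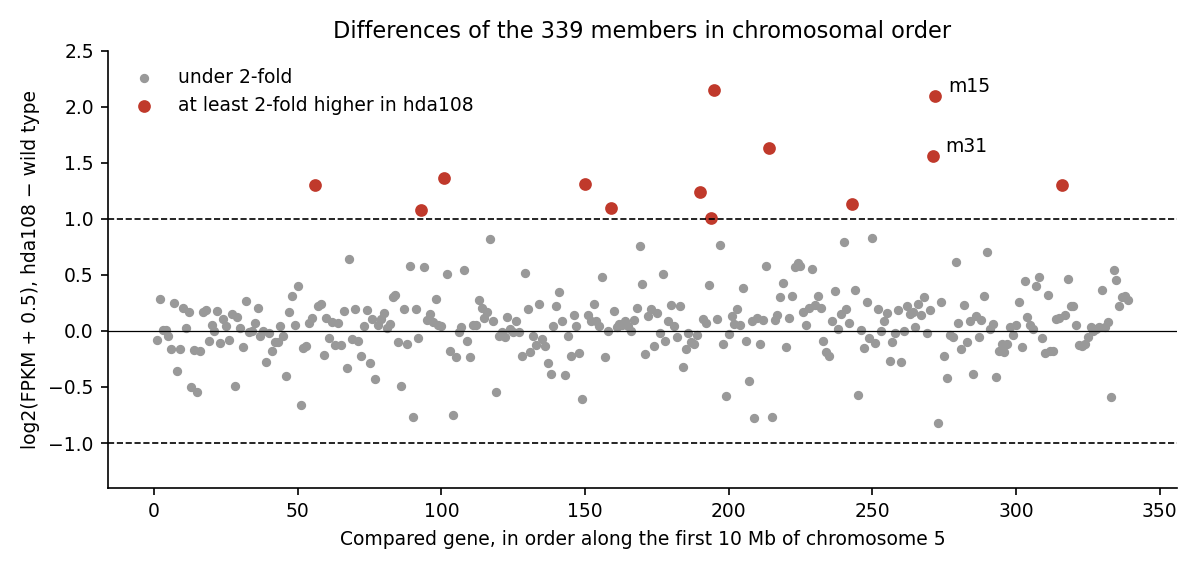
Each point is 1 of the 339 compared genes, placed in its order along the segment (x axis, rank) against its difference between hda108 and wild type (y axis, log2 of FPKM + 0.5). The 13 red points lie above the upper dashed line of 2-fold, no point lies below the lower one, and grey points lie around 0 along the whole segment.

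Between 1.5-fold and 2-fold, 9 members were higher (2.65%) and 8 lower (2.36%), beside 3.84% and 2.79% of all compared genes. At 1.5-fold or more, 22 members were higher (6.49%) and 8 lower (2.36%), beside 5.32% and 3.63% of all compared genes. The share within 1.5-fold was 91.2% of members and 91.1% of all compared genes. A difference above 0 was found for 212 members (62.5%), against 59.7% of all compared genes.

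The 2 MADS-box genes held the second and the fourth largest differences of the segment. The gene m15 (GRMZM2G553379, 6993293 to 7011505) had a wild-type value of 3.84 FPKM and an hda108 value of 18.1 FPKM, a log2 difference of 2.10. The gene m31 (GRMZM2G071620, 6925446 to 6932461) had 0.308 FPKM in the wild-type pool and 1.89 FPKM in the hda108 pool, a difference of 1.56. Both were higher in hda108, and m31 passed the limit on the mean through its hda108 value, so it could enter the comparison only with a large difference. The loci are 60.8 kb apart with 0 other entries of the table between them. In the RefSeq annotation of the later assembly Zm-B73-REFERENCE-NAM-5.0 there are likewise 0 entries between them.

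The 20 compared genes around this pair, 10 on either side, were all within 2-fold. Their median was 0.11, their range -0.82 to 0.61, and 12 of 20 were above 0. Over all compared genes 2.31% passed 2-fold in either direction and 59.7% were above 0, so both counts are near those shares. The gene next to m31, GRMZM2G071745, had 25.8 FPKM in wild type against 29.3 FPKM in hda108. The gene next to m15, GRMZM2G130053, had the largest lower difference of the whole segment, with a wild-type value of 13.9 FPKM and an hda108 value of 7.70 FPKM. Close by, Bk2L4, a relative of the brittle stalk gene of secondary cell walls, had 22.9 and 22.6 FPKM. A like pair lies on chromosome 1, where m4 and m24 are 78.5 kb apart. There m4 had 6.01 FPKM in the wild-type pool and 18.9 FPKM in the hda108 pool, and m24 had 0.822 and 1.78 FPKM. On all chromosomes, 16 compared genes were found by a MADS-box name, entries also named as myosin left out. Family members without such a name were not counted. Of the 16, 4 were at least 2-fold higher and 0 lower, with 11 above 0 and 5 below. Those below 0 included m5 (-0.91), m20 (-0.70), MADS34 (-0.53) and m21 (-0.53). The 4 higher genes were m4, m15, m31 and MADS36, and 1.48% of all compared genes were as much higher. MADS36 rose from 0.245 to 1.97 FPKM between the wild-type and the hda108 pool. Like m31, it passed the limit on the mean through its hda108 value, so both could enter this count only with a large difference.

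**Figure D2:**
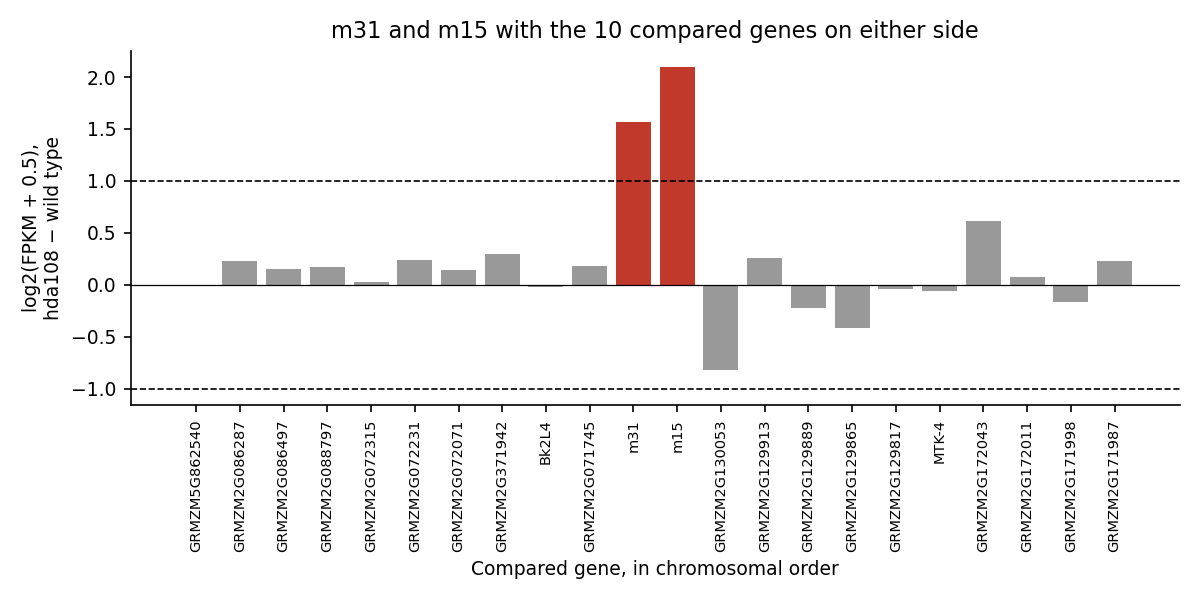
Bars give the difference between hda108 and wild type (y axis, log2 of FPKM + 0.5) for m31, m15 and the 10 compared genes on either side, in chromosomal order (x axis). The red bars of m31 and m15 reach 1.56 and 2.10, while the grey bars lie between -0.82 and 0.61 and the gene just after m15 is the lowest.

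The largest difference of the segment belonged to a gene without a name in the reference table. GRMZM2G028218 (4684603 to 4688560) had 1.51 FPKM in wild type against 8.42 FPKM in hda108, which differ by 2.15 on the log2 scale. The compared gene just before it, GRMZM2G320506 (4670692 to 4674066), had a wild-type value of 1.35 FPKM and an hda108 value of 3.21 FPKM. At 1.01 it was the member closest to the 2-fold limit from inside. A little upstream, AC159612.1_FG007 (4583376 to 4584977) had 2.12 and 5.69 FPKM, so that 3 of the 13 genes lay within 105 kb. The gene after GRMZM2G028218, GRMZM2G028813, had 1.75 FPKM in the wild-type pool and 1.93 FPKM in the hda108 pool.

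The third largest difference was that of GRMZM2G432900 (5253705 to 5255230), with 0.344 FPKM in wild type against 2.12 FPKM in hda108. It shares its locus entry with another identifier, so its value is uncertain. The same holds for GRMZM2G125552 (1569817 to 1577527), which had a wild-type value of 2.13 FPKM and an hda108 value of 5.99 FPKM. These are the 2 of the 13 genes with shared entries, beside 43 of the 339 members.

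The other 6 higher genes also have no name in the reference table. GRMZM2G002805 (2378612 to 2379912) had 1.06 FPKM in the wild-type pool and 3.52 FPKM in the hda108 pool. GRMZM2G139805 (3602325 to 3605782) had 1.60 and 4.70 FPKM, and GRMZM5G883250 (3833054 to 3836756) had 1.17 and 3.06 FPKM. All 3 were near 1 to 2 FPKM in wild type and about 3 to 5 FPKM in hda108. GRMZM2G035248 (6338651 to 6339737) had 1.26 FPKM in wild type against 3.36 FPKM in hda108. GRMZM2G367094 (8472542 to 8473126), the higher member farthest along the segment, had 0.546 and 2.08 FPKM. Higher in level was GRMZM2G144024 (2269176 to 2269949), with a wild-type value of 4.81 FPKM and an hda108 value of 10.7 FPKM.

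**Figure D3:**
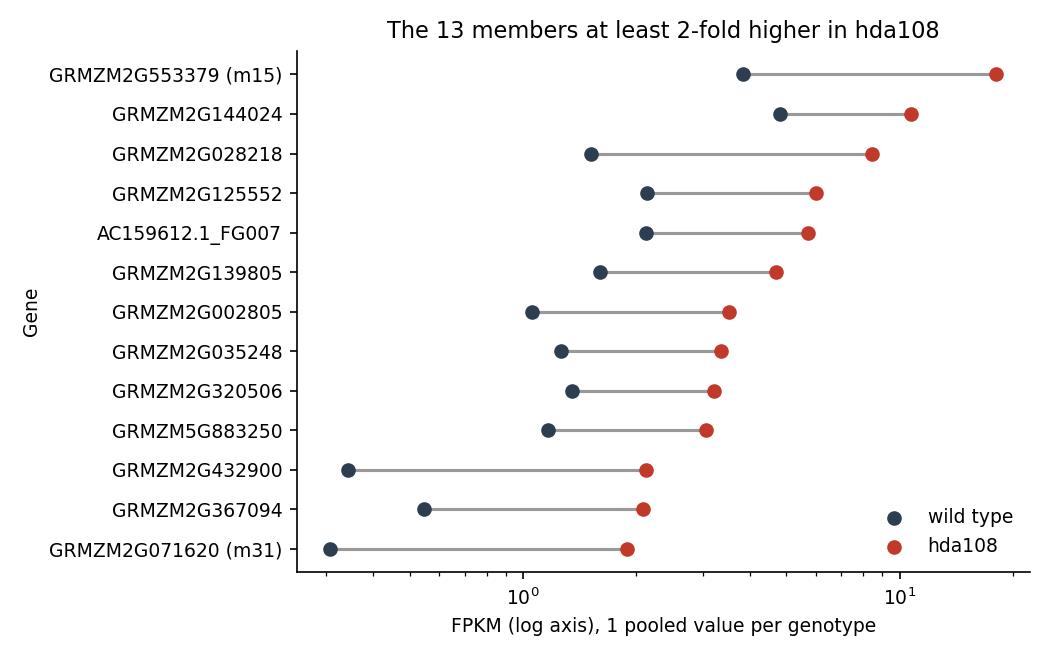
For each of the 13 members at least 2-fold higher, the dark point is the wild-type value and the red point the hda108 value (x axis, FPKM on a log axis, 1 pooled value per genotype, no error bars available). Wild-type values run from 0.308 to 4.81 FPKM and hda108 values from 1.89 FPKM for m31 to 18.1 FPKM for m15.

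The 13 genes were weakly expressed in wild type. Their wild-type values ran from 0.308 to 4.81 FPKM with a median of 1.35 FPKM, and the median over all members was 6.96 FPKM. In hda108 their median was 3.52 FPKM. The mean of both genotypes was below 5 FPKM for 11 of them, m15 and GRMZM2G144024 being the exceptions. Among members with a mean of 1 to 5 FPKM, 11 of 139 were at least 2-fold higher (7.91%), against 167 of 7232 genes of that level outside the segment (2.31%). Among members with a mean of at least 5 FPKM, 2 of 200 were (1%), against 0.971% of such genes outside. Between 5 and 20 FPKM, 2 of 132 members were higher (1.52%), against 93 of 9063 genes outside (1.03%). Above that 0 of 68 members were. Outside the segment 33 of 3766 genes (0.876%) were from 20 to 100 FPKM and 5 of 657 (0.761%) above, so 0 of 68 is near the share outside.

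**Figure D4:**
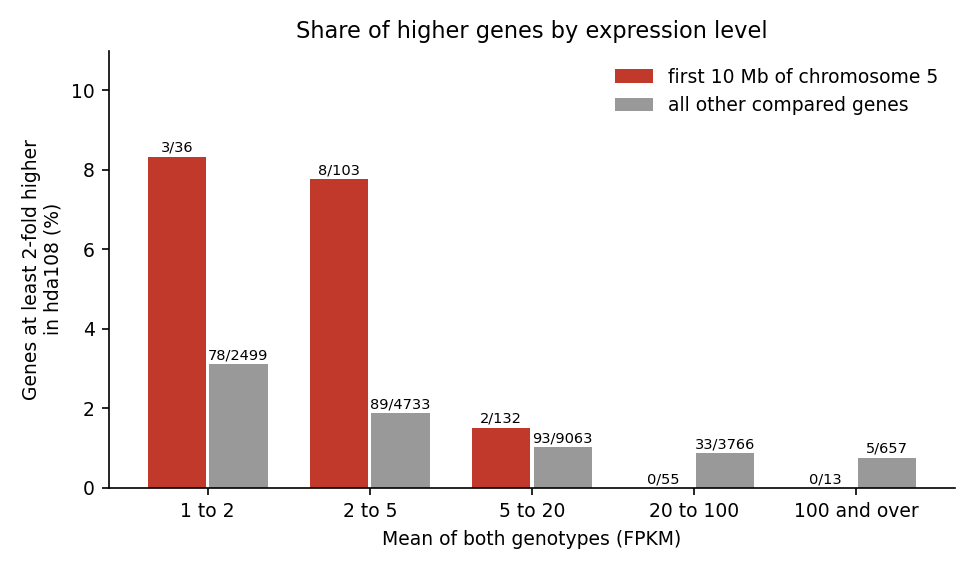
Bars give the share of compared genes at least 2-fold higher in hda108 (y axis, percent) by the mean of both genotypes (x axis, FPKM), for the segment in red and for all other compared genes in grey, with counts above each bar. The red bars stand above the grey ones up to 20 FPKM, by less between 5 and 20 FPKM (2 of 132 members) than below. With a mean of at least 20 FPKM 0 of 68 members were higher, where the grey bars are also low (0.876% and 0.761%).

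The limit on the mean bears on this comparison, because a gene near 1 FPKM can enter through 1 genotype alone. In the segment 7 members (2.06%) had a wild-type value below 1 FPKM, of which 3 were at least 2-fold higher: m31, GRMZM2G432900 and GRMZM2G367094. Outside it 404 compared genes (1.95%) had such a value, of which 94 were at least 2-fold higher. The other 10 higher genes, among 339 members, had at least 1 FPKM in both genotypes. Outside the segment 204 higher genes, among 20718 compared genes, had at least 1 FPKM in wild type. No member had an hda108 value below 1 FPKM, while 224 compared genes outside the segment did (1.08%). At the limit itself, GRMZM2G356260 (0.899 and 1.20 FPKM in wild type and hda108) was just inside and GRMZM2G159950 (0.889 and 1.05 FPKM) just outside.

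Higher genes were found among short and long loci. The loci of the 13 genes spanned 585 to 18213 bp with a median of 3375 bp, and the median over the members was 3719 bp. Of the 107 members spanning 5 kb or more, 3 were higher (2.80%), against 30 of 7154 such genes outside the segment (0.419%). The 3 were m15, m31 and GRMZM2G125552. Of these, m31 entered the comparison through its hda108 value. GRMZM2G125552 shares its locus entry with other identifiers, so that span may not be its own. Of the 20 members under 1 kb, 2 were higher (10%), against 91 of 1607 outside (5.66%).

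Along the segment the higher genes were spread out. They lay between 1.57 and 8.47 Mb, with gaps of 10.5 to 1461 kb between one and the next. In steps of 1 Mb, 3 of the 10 steps held none: the first, the eighth and the last. The steps from 4 to 5 Mb and from 6 to 7 Mb held the most, with 3 of 40 and 3 of 36 compared genes. The median difference of a step ran from -0.04 between 7 and 8 Mb, just beyond m15, to 0.15 between 6 and 7 Mb. Apart from the pair m31 and m15, GRMZM2G320506 and GRMZM2G028218 were the other higher genes that were direct neighbours among the compared genes. The 22 remaining neighbours of higher genes had a median difference of 0.11, and 16 of them were above 0. Over all members the median was 0.06 and 62.5% were above 0. Among these neighbours, AC202974.3_FG004, GRMZM2G426735 and GRMZM2G130625 share a locus entry with the higher gene beside them.

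The first member, GRMZM2G054378 (10730 to 23527), had 4.34 FPKM in the wild-type pool and 4.08 FPKM in the hda108 pool. The last, GRMZM2G045955 (9982124 to 9986504), had 2.07 and 2.61 FPKM. The first compared gene beyond the limit, GRMZM2G045690 (10004683 to 10008575), had 5.52 and 5.56 FPKM. Before the first higher gene lay 54 members, and 23 lay beyond the last. That these were within 2-fold follows from the bounds, since no member was 2-fold lower.

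The share of higher genes was lower in the rest of chromosome 5. Among its 2211 compared genes, 28 passed 2-fold upward (1.27%) and 17 downward (0.769%), with a median difference of 0.06. From 5 to 10 Mb 5 of 136 members were higher (3.68%), and from 10 to 20 Mb, next to the segment, 2 of 209 genes were higher (0.957%) and 1 lower. Of the other 21 steps of 10 Mb along the chromosome, the one nearest in share was 80 to 90 Mb, with 3 of 81 genes (3.70%). With such small numbers a single gene moves that share past the segment's 3.83%.

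Windows of 339 consecutive compared genes were laid over the other 9 numbered chromosomes for comparison. These 50 windows held 1 to 14 genes at least 2-fold higher, with a median of 4.5. One window had as many as the segment, on chromosome 4, the chromosome of HDA108, between 89378985 and 160304742. It held 14 genes higher and 15 lower. The next held 12 higher and 5 lower, on chromosome 10. In 3 windows 0 genes were at least 2-fold lower, and none of the 50 had both 13 higher and 0 lower. By median difference the segment was ordinary, since 33 of the 50 windows had a median at least as high. The 6 windows on the rest of chromosome 5 held 3 to 6 higher genes.

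**Figure D5:**
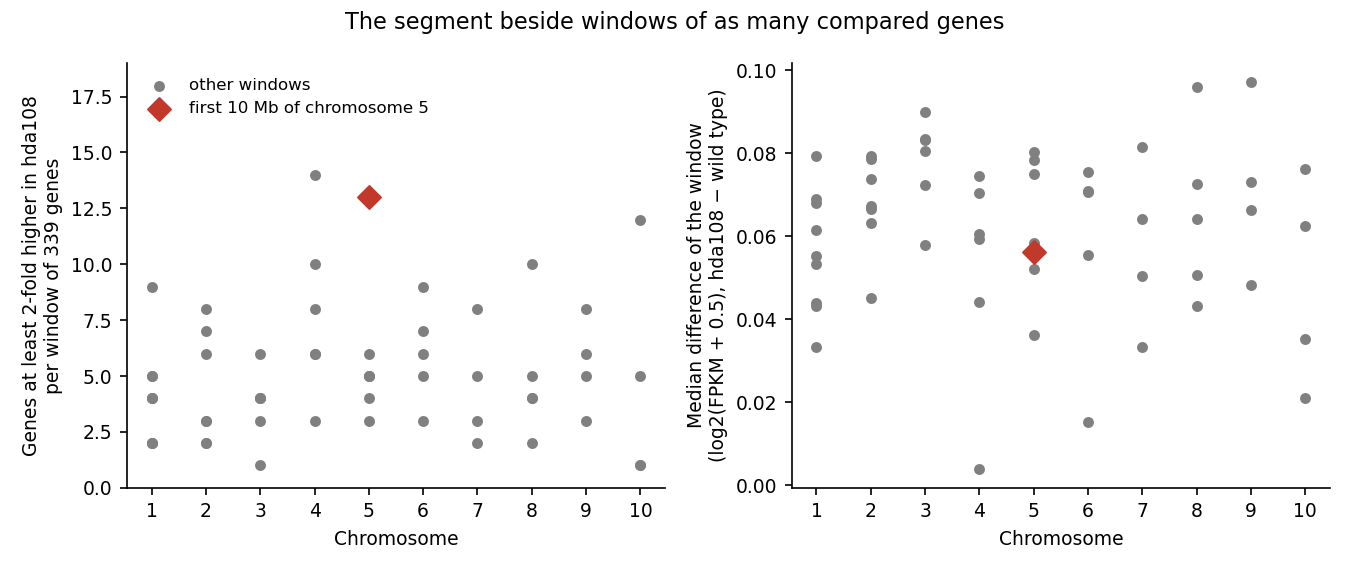
Each grey point is a window of 339 consecutive compared genes on the chromosome given on the x axis, and the red diamond is the first 10 Mb of chromosome 5. On the left (y axis, number of genes at least 2-fold higher in hda108) the diamond at 13 lies below 1 point on chromosome 4, at 14. On the right (y axis, median difference, log2 of FPKM + 0.5) the diamond at 0.06 lies among the grey points.

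The ends of the chromosomes were compared as well, since the segment is one. The other 19 stretches of 10 Mb at chromosome ends held 92 to 302 compared genes each. Their shares of genes at least 2-fold higher ran from 0 to 2.46%, the highest at the far end of chromosome 6, and none reached that of the segment. In 2 of them 0 genes were at least 2-fold lower. Their medians ran from -0.01 to 0.10, and 10 of 19 were at least that of the segment. The ends hold fewer genes than the segment, so their shares rest on fewer counts.

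Of the 339 members, 28 have a gene name in the reference table, and m15 and m31 were the 2 of them past 2-fold. The median difference of the 28 was 0.00. The genes of the plastid and of photosynthesis were mostly lower, none of them by 2-fold, with 3 of 4 below 0 and a median of -0.32, beside 0.06 over all genes. The 26 compared genes that the same name patterns find in the whole table had a median of -0.36. The photosystem I subunit gene psad1 had 217 FPKM in wild type against 166 FPKM in hda108. The gene sig6, which encodes a sigma factor of the plastid RNA polymerase, had 17.2 and 13.4 FPKM. RH3A, a plastid RNA helicase, had 27.6 and 22.6 FPKM, and PSA3, needed for photosystem I assembly, had 28.3 and 29.5 FPKM.

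The other regulators of transcription found by symbol were close to equal in the genotypes, with AUX32 and AUX14 counted among the hormone genes instead. This group held 5 members with a median of -0.06, of which 2 were above 0. That median was 0.10 without shared locus entries, which removes arf1 and Hsf12. The bZIP gene ohp2, a partner of the seed regulator opaque2, had a wild-type value of 6.90 FPKM and an hda108 value of 7.60 FPKM. The heat stress factor gene Hsf12 had 4.47 and 4.16 FPKM, bHLH159 had 3.19 and 2.69 FPKM, and TIFY18 had 2.56 and 2.79 FPKM. The fifth, arf1 with 151 and 145 FPKM, entered by its symbol, which is also used for genes of vesicle transport. The linker histone gene listed as H1 had 23.3 FPKM in the wild-type pool and 23.4 FPKM in the hda108 pool.

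Among hormone and cell wall genes, AUX32 and expA4 were higher without reaching 2-fold. AUX32 had 13.7 FPKM in wild type against 23.4 FPKM in hda108, a difference of 0.75, whereas AUX14 had 23.4 and 21.6 FPKM. The expansin gene expA4, which belongs to a family of wall-loosening proteins, had 5.19 and 7.94 FPKM. It lies directly after GRMZM2G144024, one of the 13 higher genes. Of the genes tied to protein kinases, Snf-4 like, named for the regulatory subunit of the SNF1 energy-sensing kinase, had a wild-type value of 2.47 FPKM and an hda108 value of 1.60 FPKM. The Tousled-like kinase gene TLK2 (listed also as MTK-4) had 9.21 and 8.84 FPKM.

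The alpha tubulin gene tua4 (9481737 to 9485476), the most abundant member, had 559.8 FPKM in the wild-type pool and 560.5 FPKM in the hda108 pool. The ribosomal protein genes rps4 and RPS10 had 145 and 151 FPKM, and 19.4 and 17.9 FPKM. The squalene synthase gene sqs1, at the entry to sterol synthesis, had 23.9 and 28.3 FPKM, and the derlin gene der2, of protein export from the endoplasmic reticulum, had 11.2 and 12.5 FPKM. Over all compared genes, of any level, 91.1% were within 1.5-fold. Of the 13 members with a mean of at least 100 FPKM, 1 differed by 1.5-fold or more.

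That gene, GRMZM2G085646 (5287241 to 5288719), carries no name in the reference table and had 428 FPKM in wild type against 251 FPKM in hda108. It lies directly after GRMZM2G432900, a higher gene. With a difference of -0.77 it was among the 5 largest lower differences, together with GRMZM2G130053 (-0.82), GRMZM5G874903 (-0.78), GRMZM2G143998 (-0.77) and GRMZM2G119186 (-0.75). GRMZM5G874903 had a wild-type value of 27.9 FPKM and an hda108 value of 16.1 FPKM. On the other side, the members just short of 2-fold were GRMZM2G377904 (0.83), GRMZM2G108694 (0.82) and GRMZM2G035103 (0.79). Between these and GRMZM2G320506 at 1.01 there was no member. GRMZM2G035103 had 1.75 FPKM in the wild-type pool and 3.40 FPKM in the hda108 pool, and lies near the higher gene GRMZM2G035248.

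Summed over all 523 entries, the segment carried 6761 FPKM in wild type against 6654 FPKM in hda108, 1.41% and 1.38% of the table. The 184 entries that were not compared comprised 74 listed at 0 in both genotypes, 14 at 0 in wild type alone, 5 at 0 in hda108 alone and 91 with a mean below 1 FPKM. Among these 91 weakly expressed genes, 52 were higher in hda108 (57.1%), against 55.4% of such genes elsewhere. BIGE1, a transporter gene known for its effect on embryo and leaf size, was one of them, at a wild-type value of 1.08 FPKM and an hda108 value of 0.597 FPKM. The microRNA precursor entries MIR390b, MIR167c, MIR167b and MIR171f were listed at 0 in both genotypes, which does not show that they were absent.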

How the data were processed

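The values are FPKM as deposited by the authors, 1 per gene and genotype. Cuffdiff 2.2.1, Cufflinks, SAMtools, TopHat2 2.0.13, Trimmomatic 0.33 and CASAVA 1.8 are listed, without role or setting, in the submitters' processing notes, which also give the build B73 RefGen_v3. The column named as homozygous was read as hda108. No count test fits such values and no replicate test was possible. Values were compared as log2(FPKM + 0.5) after a limit of 1 FPKM on the mean, and 2-fold replaced a test. The segment, its members, the gene groups and the rule for named genes (members past or nearest to 2-fold, the ends, the most abundant, group members by name) were chosen with earlier results of these data known, and some name patterns were added after the names were seen. No name in the segment matched a pattern for chaperones. Phosphatase and transporter groups were not filled. Names came from the RefSeq table of Zm-B73-REFERENCE-NAM-5.0, in which 229 of the 339 members matched 1 entry. The comparison with chromosome ends was added after the data had been seen. Counting steps were tested on simulated differences. The software was matplotlib 3.10.9, scipy 1.17.1, pandas 2.3.3 and numpy 2.4.6 under Python 3.11.15.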

Additional observations from a re-analysis of the deposited data

Results flagged for a closer look

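A signal in values outside the fold comparison was listed for GRMZM2G003014 (chromosome 5, 3258467 to 3258708, a locus of 242 bp), whose wild-type value is listed as 0 while its hda108 value is 1.31 FPKM. Of the entries with a wild-type 0 and at least 1 FPKM in the mutant, it was the 1 in the segment, and 25 lay elsewhere. A listed 0 can be a failed estimate, and no fold is given.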

How the results depend on the processing

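No paired analysis was possible because the table holds 1 value per genotype, and leaving out a replicate could not be run for the same reason. The share of higher genes over all compared genes also moved with the setting. It was 1.27% with quantile normalization (segment 3.54%), 2.01% with a pseudocount of 0.1 (segment 3.83%) and 2.27% with no pseudocount (segment 4.42%). Apart from the exceptions below, the segment had 0 genes at least 2-fold lower and a share of 3.26% to 4.42% higher under every alternative. Among these was the limit of 5 Mb, with 8 of 203 genes higher (3.94%, 3 of 87 windows as high). The exceptions were the following. With a pseudocount of 1 FPKM 9 genes were higher (2.65%), beside 1.07% over the whole table, so the segment stayed above that share. When the limit on the mean was raised to 5 FPKM, 2 of 200 were higher (1%), beside 0.972% over the whole table. The segment was then near that share, and 26 of 56 windows and 10 of 21 steps of chromosome 5 were as high. Up to 20 Mb 15 of 548 genes were higher (2.74%) and 1 lower (2 of 29 windows and 2 of 20 steps as high). With the 1.5-fold rule 22 were higher (6.49%) and 8 lower, 13 of 50 windows and 4 steps being as high. The windows with as many higher genes numbered 3 with a pseudocount of 0.1 and of 1. They numbered 2 with the median of all genes set to 0, with quantile normalization and without m15 and m31. They numbered 0 of 44 without chromosome 4, and 387 of 15310 when sliding by 1 gene. One other step of chromosome 5 had as high a share (1) with either pseudocount, with no filter on low values, with the median set to 0, without shared entries, and without m15 and m31. The median difference of the segment was -0.0052 with the median of all genes set to 0 and -0.0024 with quantile normalization. The group of other transcription regulators, filled by symbol and with arf1 included, had a median of -0.06 over its 5 members. Its median was 0.036 with a mean of at least 5 FPKM, where only arf1 and ohp2 remained. It was 0.023 with no filter, 0.10 without shared entries and 0.033 up to 20 Mb. Each of these settings changes which genes the group holds. A gene left out by a setting gave no value. The limit of 5 FPKM on the mean left out 11 of the 13 higher genes. Among 18 named genes, 6 of the 212 values that remained moved to the other side of 2-fold, all downward, 4 of them with a pseudocount of 1. The others were GRMZM2G320506 with the median of all genes set to 0 (0.94) and with quantile normalization (0.92). The cause of these changes was not tested, apart from the fewer genes or wider limits that the alternatives bring by construction.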
